A study of Mus musculus with 6 samples.

Results

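The miR-101 family of the mouse liver was followed through its 5 entries in the small RNA table, which were taken by name as every mature miRNA called mmu-miR-101a, mmu-miR-101b or mmu-miR-101c, on either arm. These are mmu-miR-101a-3p, mmu-miR-101a-5p, mmu-miR-101b-3p, mmu-miR-101b-5p and mmu-miR-101c, out of 1039 entries in all, of which 762 have mouse names. The libraries came from liver of wild type ICR mice, an outbred stock, 30 weeks old. All of them ate high-fat diet (HFD), for 12 weeks alone and then during 8 weeks of gavage. The J group (3 mice) received JTXK granule, a Chinese herbal formula, and the M group (3 mice), the diabetic model, received sterile water. No library of mice on standard diet was analysed here, so the values below speak of treated against untreated HFD mice only. Each library is a different mouse, and its values are given as RPM, the reads of a miRNA scaled to the total miRNA reads of the library.

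A miRNA gene is transcribed as a long RNA that folds into a hairpin. The enzymes Drosha and Dicer cut out a short duplex from it, and an Argonaute protein keeps mostly a single arm, the guide, while the other arm is degraded. The guide finds mRNAs through its seed, bases 2 to 8 from its 5′ end. The 3p arm is the guide of the miR-101 hairpins. miR-101 is known to repress Ezh2, the histone methyltransferase of Polycomb repressive complex 2, and the survival factor Mcl1, and it is often low in hepatocellular carcinoma.

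The hairpins are shown first because the whole comparison rests on telling their products apart, and both arms are in capitals. The sequences are those of RefSeq on GRCm38.p6, where all 5 entries were matched by name.
Mir101a hairpin: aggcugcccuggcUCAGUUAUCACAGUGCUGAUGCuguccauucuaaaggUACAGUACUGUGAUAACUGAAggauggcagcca
Mir101b hairpin: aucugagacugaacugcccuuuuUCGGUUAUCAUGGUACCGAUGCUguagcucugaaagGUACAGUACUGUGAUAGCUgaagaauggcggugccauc

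Mir101a lies on chromosome 4 (chr4:101346945-101347027, minus strand) inside an exon of the long noncoding RNA E130102H24Rik on the same strand. Mir101b lies on chromosome 19 (chr19:29135279-29135375, plus strand) in an intron of Rcl1, a gene of ribosome biogenesis, also on the same strand. Mir101c lies on chromosome 9 (chr9:3038669-3038743, minus strand), where GENCODE annotates no other gene over it. The pair therefore comes from transcripts of different chromosomes.

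The mature members are shown next with their seed in capitals, together with mmu-miR-144-3p, an erythroid miRNA whose start resembles theirs.
mmu-miR-101a-3p: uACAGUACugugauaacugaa
mmu-miR-101b-3p: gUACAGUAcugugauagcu
mmu-miR-101c: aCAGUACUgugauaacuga
mmu-miR-144-3p: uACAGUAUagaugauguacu
mmu-miR-101a-5p: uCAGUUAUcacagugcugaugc
mmu-miR-101b-5p: uCGGUUAUcaugguaccgaugcu

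In the annotation mmu-miR-101b-3p begins 1 base before mmu-miR-101a-3p, so that its seed is shifted, and none of the 5 entries shares a seed with another entry of the table. Counted from that common start, however, the next 21 bases of both hairpins differ at a single base, A16G (the base of Mir101a first, positions from 1 at the 5′ end of mmu-miR-101a-3p). The hairpins share a run of 20 bases, so reads that end before base 16 cannot be assigned to either of them. mmu-miR-101c consists of 19 bases that are all contained in mmu-miR-101a-3p. Its reads can therefore not be told apart from shortened mmu-miR-101a-3p, and the rule by which the authors assigned reads that match several miRNAs is not given in the sources used here. The names in the table carry a suffix that the sources used here do not explain, so which bases a read had to cover is not known. In the 5p arms, 17 of 22 aligned bases were the same.

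The libraries held 2626353 to 4314134 miRNA reads, recovered as whole reads from the RPM. M group replicate 1 stood apart from the rest over the miRNAs tested, with a mean Pearson correlation of log2(RPM + 1) with the other libraries of 0.937, while the means of the other 5 were 0.969 to 0.974. Its sample code also differs from the other 5 in the digit after the letters, and the labels do not say what this digit stands for. Values without it are given beside the results in which it was the highest or lowest library and decided the value.

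mmu-miR-101b-3p was the most abundant member. It had 7849.5, 7838 and 8287 RPM in J group replicates 1, 2 and 3, and 6658, 5717 and 7743 RPM in M group replicates 1, 2 and 3. Every J library was above every M library, although J group replicate 2 exceeded M group replicate 3 by little, and their 95% Wilson intervals overlapped (7748 to 7930.3 and 7660.2 to 7826 RPM). The J mean was 7992 ± 256 RPM and the M mean 6706 ± 1014 RPM (SD, n = 3 each), a ratio of 1.19. Groups without overlap were seen in 13.5% of the 548 miRNAs tested, with the J libraries on top in 4.2% and below in 9.31%.

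mmu-miR-101a-3p had 4520.5, 4237 and 4599 RPM in the J replicates and 3333, 4241 and 4003 RPM in the M replicates. The groups overlapped, since M group replicate 2 was just above J group replicate 2, and the lowest value by far was that of M group replicate 1. The J mean was 4452 ± 190.1 RPM and the M mean 3859 ± 471 RPM (SD, n = 3 each), a ratio of 1.15.

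Together with the small entry mmu-miR-101c, whose sequence belongs to the 3p arm, the 3p entries summed to 12378, 12082 and 12897 RPM in the J replicates and to 10009, 9964 and 11754 RPM in the M replicates. This is 1.21% to 1.29% of all miRNA reads of a J library and 0.996% to 1.18% of an M library. The J group was above the M group without overlap, with means of 12452 ± 412 and 10576 ± 1021 RPM (SD, n = 3 each). The mean log2 difference was 0.24, with p = 0.1 in an exact two-sided permutation test, which is the smallest p that 3 against 3 libraries can give (0.4 after Benjamini-Hochberg adjustment over 4 such tests). Without M group replicate 1 the difference was 0.20.

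**Figure D1:**
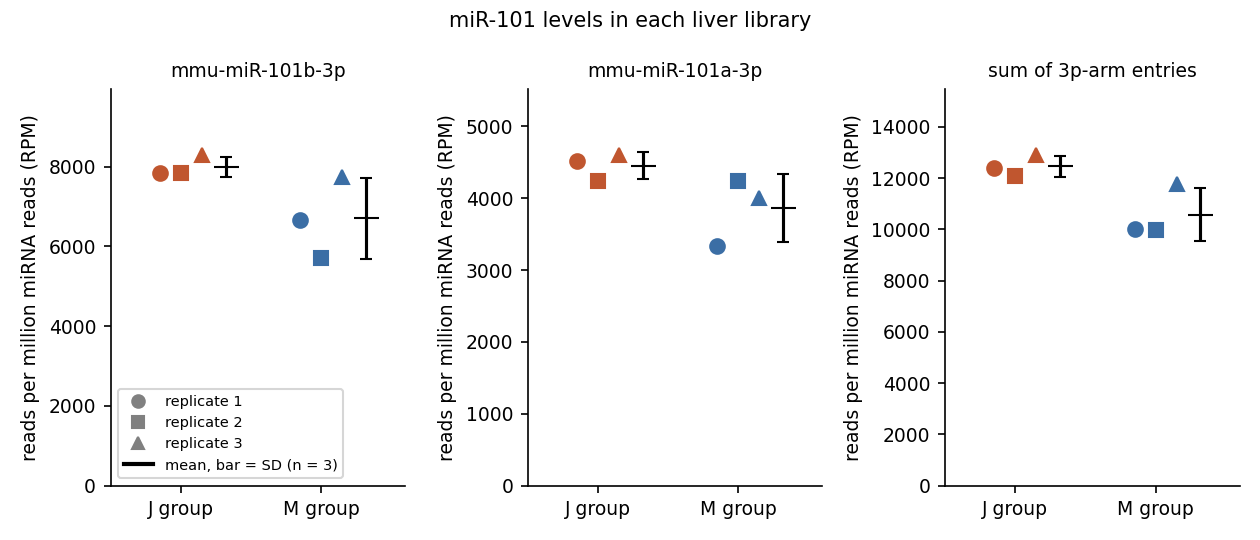
Levels of mmu-miR-101b-3p, mmu-miR-101a-3p and the sum of the 3p-arm entries (vertical axes, RPM from 0) in the 3 J libraries (orange) and 3 M libraries (blue); marker shapes are replicates, and the bars beside them are the mean and SD of 3 libraries. The J libraries of mmu-miR-101b-3p (7838 to 8287 RPM) and of the sum (12082 to 12897 RPM) lie above all M libraries, and those of mmu-miR-101a-3p overlap the M libraries.

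The groups were compared miRNA by miRNA with limma on log2(RPM + 1), a linear model with variances moderated across miRNAs. The study's thresholds were used, which ask for a log2 change of more than 0.3 in either direction together with an unadjusted p under 0.05. Of the 4 members with a mean above 1 RPM, 0 passed, while 5.29% of all 548 miRNAs did, 1.46% with a higher and 3.83% with a lower J level. No member had an unadjusted p under 0.05 in limma (0 of 4, beside 5.29% of all miRNAs), nor on the recovered reads with edgeR (0 of 4, beside 8.21%) or DESeq2 (0 of 4, beside 6.57%). After adjustment, 0 of the 548 miRNAs had a p under 0.05 in limma and edgeR and 0.365% in DESeq2, and no miR-101 entry was among the latter. The log2 fold change of mmu-miR-101b-3p was 0.26 (standard error 0.15, 95% interval -0.10 to 0.62, adjusted p = 0.71), and 14.6% of the miRNAs tested had a smaller p. That of mmu-miR-101a-3p was 0.21 (standard error 0.15, 95% interval -0.15 to 0.57, adjusted p = 0.71). Both intervals include 0. The median log2 fold change of all miRNAs tested was -0.13, and 18.2% of them had a higher value than mmu-miR-101b-3p. Without M group replicate 1 the values were 0.26 for mmu-miR-101b-3p and 0.11 for mmu-miR-101a-3p, so that this library held much of the difference of the latter. For mmu-miR-101b-3p it was M group replicate 2 that weighed most on the low side, with a value of 0.15 without it.

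The spread of the pair was smaller among the J libraries, but for mmu-miR-101a-3p this rested on a single M library. On the log2 scale the SD of mmu-miR-101b-3p was 0.05 among the J libraries and 0.22 among the M libraries, and that of mmu-miR-101a-3p was 0.06 and 0.18. Without M group replicate 1 the M SD of mmu-miR-101a-3p was 0.06, as in the J group, while that of mmu-miR-101b-3p was 0.31, and it was 0.15 without M group replicate 2. There were 56 miRNAs with a mean of at least 1000 RPM, and their median SD was 0.23 in the J group and 0.22 in the M group. Only 2 of the 56 had a smaller SD than mmu-miR-101b-3p in the J group, whereas 29 of them did in the M group. For mmu-miR-101a-3p these counts were 4 and 22. Whether the spread differs between the groups was not tested, since 3 libraries give it little precision.

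In the order of RPM among the 762 mouse miRNAs, mmu-miR-101b-3p was 19th by the J mean, 21st by the M mean and 20th over all libraries. mmu-miR-101a-3p was 27th by the J mean, 33rd by the M mean and 31st over all libraries, and its rank ran from 25 to 40 in single libraries. RPM counts reads and was not corrected for length, and the order below is an order of reads assigned to each entry. Over all libraries mmu-miR-101b-3p stood between mmu-miR-30d-5p (7534 RPM) and mmu-miR-148b-3p (6945 RPM). mmu-miR-30d-5p was above it in 2 of 3 J and 1 of 3 M libraries, so these levels overlapped in both groups, whereas mmu-miR-148b-3p was above it in 0 of 3 J and 2 of 3 M libraries. mmu-miR-101a-3p stood between mmu-miR-152-3p (4288 RPM), which was above it in 1 of 3 J and 3 of 3 M libraries, and mmu-miR-30c-5p (4078 RPM), above it in 1 of 3 and 2 of 3. The order among close neighbours thus changed from library to library, and for some of them by group. Further neighbours of mmu-miR-101b-3p were mmu-let-7a-5p, mmu-miR-100-5p, mmu-miR-126b-3p and mmu-let-7c-5p (6415 to 8994 RPM), and those of mmu-miR-101a-3p were mmu-miR-191-5p, mmu-miR-3074-5p, mmu-miR-29a-3p and mmu-miR-144-3p (3803 to 4548 RPM). Of the 12 neighbours, 4 passed the thresholds in limma (beside 5.29% of all miRNAs, 3.83% lower in the J group), each of them with the lower level in J, unlike the pair. These shares include rare miRNAs, and the share among miRNAs of similar level was not counted. The number of neighbours that passed is thus not a result about the neighbourhood of the pair. The log2 fold changes of the 4 were -1.19 for mmu-miR-191-5p (adjusted p = 0.42), -0.59 for mmu-miR-148b-3p (adjusted p = 0.42), -0.54 for mmu-let-7a-5p (adjusted p = 0.43) and -0.34 for mmu-let-7c-5p (adjusted p = 0.71). mmu-miR-191-5p was below mmu-miR-101a-3p in all 3 J libraries and above it in all 3 M libraries.

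The ratio between the members of the pair was similar in 5 libraries and stood apart in 1. mmu-miR-101a-3p made up 36.5%, 35.1% and 35.7% of the reads of the pair in J group replicates 1, 2 and 3. In M group replicates 1 and 3 its share was 33.4% and 34.1%, but in replicate 2 it was 42.6%. The 95% Wilson interval in M group replicate 2 (42.1% to 43.1%) lay far above those of the other libraries, the highest of which reached 37.0% in J group replicate 1. These intervals cover counting error only and not the spread between mice, which 3 mice in a group show poorly. In reads, M group replicate 2 held 14465 of mmu-miR-101a-3p and 19501 of mmu-miR-101b-3p, a ratio of mmu-miR-101b-3p to mmu-miR-101a-3p of 1.35, while the ratio was 1.74 or more in the other 5. M group replicate 2 had the lowest mmu-miR-101b-3p of all libraries but an mmu-miR-101a-3p within the range of the J group.

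Between the groups the ratio did not differ beyond its spread. The mean share of mmu-miR-101a-3p was 35.8% ± 0.731 for J and 36.7% ± 5.13 for M (SD, n = 3 each). The log2 ratio of mmu-miR-101a-3p to mmu-miR-101b-3p was -0.84 ± 0.05 for J and -0.79 ± 0.31 for M (SD, n = 3 each, difference -0.05, exact two-sided permutation test, p = 1.0). Without M group replicate 2 the difference was 0.13, so its sign rests on that library. A ratio within a library does not depend on the total by which the reads were scaled.

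**Figure D2:**
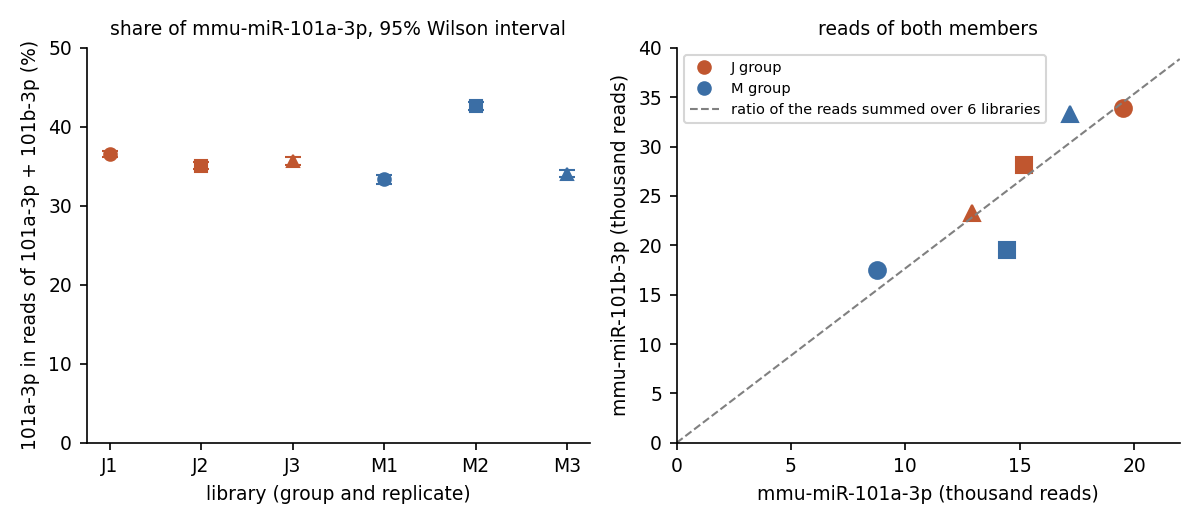
Left, share of mmu-miR-101a-3p in the reads of the pair (vertical axis, percent from 0) in each library, with 95% Wilson intervals; right, reads of mmu-miR-101b-3p against reads of mmu-miR-101a-3p in units of 1000 reads, with a dashed line at the ratio of the summed reads. J libraries are orange and M libraries blue, and M group replicate 2 stands apart at 42.6%, below the line, while the other 5 lie between 33.4% and 36.5%.

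The 5p arms were rare. mmu-miR-101a-5p, the passenger arm, had 19, 19 and 8 reads in the J replicates and 17, 18 and 29 reads in the M replicates, which is 4.40, 5.30 and 2.85 RPM against 6.47, 5.28 and 6.75 RPM. The groups met at the edge, with J group replicate 2 a little above M group replicate 2. The J mean was 4.19 ± 1.24 RPM and the M mean 6.17 ± 0.783 RPM (SD, n = 3 each), and the log2 fold change was -0.49 (standard error 0.31, 95% interval -1.23 to 0.25, adjusted p = 0.71, limma). J group replicate 3 weighed most here, and the value was -0.29 without it.

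The arms of the Mir101a hairpin thus had means that lay apart in opposite directions, with the 3p arm higher and the 5p arm lower in the J group. The 5p arm made up 0.0973%, 0.125% and 0.0620% of the reads of both arms in the J replicates and 0.194%, 0.124% and 0.168% in the M replicates. All these shares have wide intervals, from 0.0314% to 0.122% in J group replicate 3 and from 0.121% to 0.310% in M group replicate 1. The log2 ratio of the 5p to the 3p arm was lower by a mean of 0.70 in the J group (J minus M -0.70, exact two-sided permutation test, p = 0.2, adjusted p = 0.4 over the 4 tests), which did not reach the smallest possible p of 0.1.

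mmu-miR-101b-5p was close to absent at this depth. It had 4, 0 and 0 reads in the J replicates and 1, 0 and 2 reads in the M replicates, 7 reads in all beside 155438 reads of its 3p arm, and was too rare for limma. The log2 ratio of its arms, with a pseudocount of 1 RPM, differed by -0.29 between the groups (exact two-sided permutation test, p = 0.4, adjusted p = 0.533 over the 4 tests), a value that the pseudocount sets in the libraries with 0 reads. It was -0.62 without J group replicate 1, -0.14 without J group replicate 2 and -0.10 without J group replicate 3. In the libraries with 0 reads, a limit of 3 reads allows a share of up to 0.0107% and 0.0129% (J group replicates 2 and 3) and 0.0154% (M group replicate 2) of the 5p arm in the hairpin. For comparison, mmu-miR-101a-5p had 110 reads beside 87998 of its 3p arm. No fold between the groups is given, since all libraries but J group replicate 1 were at or under 3 reads.

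mmu-miR-101c had 36, 23 and 30 reads in the J replicates and 49, 19 and 34 reads in the M replicates, or 8.34, 6.42 and 10.7 RPM against 18.7, 5.57 and 7.91 RPM. M group replicate 1 was the high library, although its mmu-miR-101a-3p was the lowest of all. Relative to mmu-miR-101a-3p, which contains its sequence, mmu-miR-101c came to 0.560% of the reads in this library and to 0.131% to 0.233% in the other 5. In limma its log2 fold change came to -0.17 (standard error 0.45, adjusted p = 0.90), but it was 0.29 without M group replicate 1 and 0.033 under quantile normalization, so no direction can be given.

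**Figure D3:**
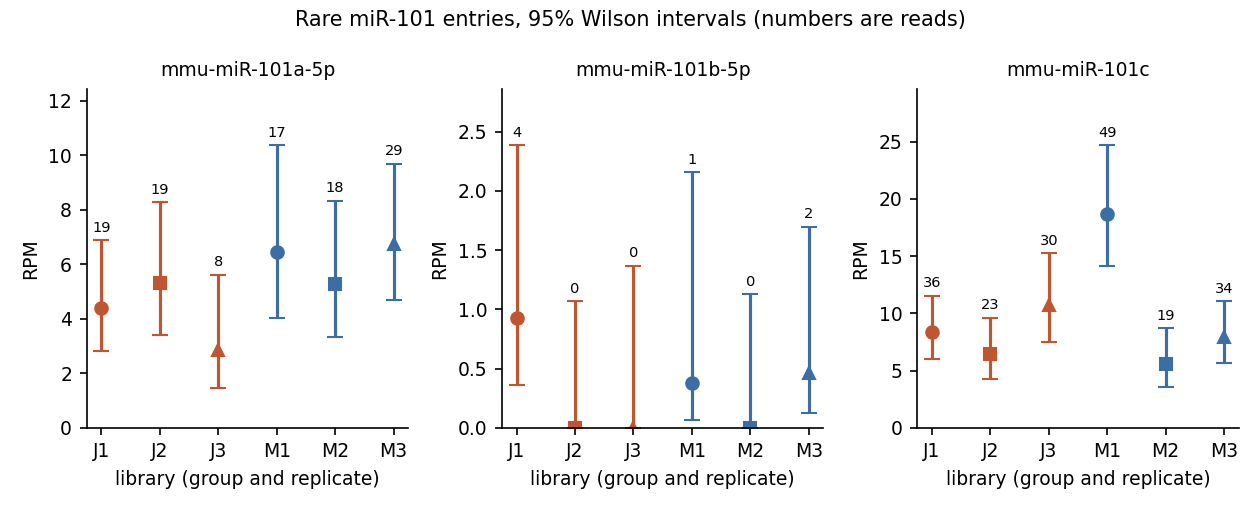
RPM (vertical axes from 0) of mmu-miR-101a-5p, mmu-miR-101b-5p and mmu-miR-101c in each J library (orange) and M library (blue), with 95% Wilson intervals and the number of reads above each. The intervals of mmu-miR-101a-5p overlap across all libraries, mmu-miR-101b-5p has 0 to 4 reads, and mmu-miR-101c is highest in M group replicate 1 with 49 reads.

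The letters ACAGUA within the first 9 bases, read on the RNA strand, were found in 6 of the 1679 mature mouse miRNAs of RefSeq (0.357%). Besides the miR-101 entries, the table holds mmu-miR-144-3p and mmu-miR-199b-3p among these. mmu-miR-144-3p, an erythroid miRNA, shares 7 bases with the start of mmu-miR-101a-3p and lay near it in level. It had 3250.5, 3373 and 4756 RPM in the J replicates and 2855, 1878 and 6706 RPM in the M replicates. Its values spread more widely than those of mmu-miR-101a-3p and mmu-miR-101b-3p, and in limma its log2 fold change came to 0.18 (standard error 0.44, adjusted p = 0.89). mmu-miR-199b-3p, which is known from stellate and other mesenchymal cells, had a J mean of 760 ± 32.8 RPM and an M mean of 860 ± 174 RPM (SD, n = 3 each), a log2 fold change of -0.16. Of these 2 miRNAs, 0 passed the thresholds (beside 5.29% of all miRNAs), and their median log2 fold change was 0.01 beside -0.13 for all miRNAs tested.

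In a piece of liver, fewer cells of a type and less RNA per cell cannot be told apart, and miR-101 is made by many cell types. The hepatocyte list (mmu-miR-122-5p, mmu-miR-122-3p, mmu-miR-192-5p, mmu-miR-194-5p, mmu-miR-148a-3p and mmu-miR-802-5p) was present with all 6 members and summed to 392097 to 420069 RPM (J) and 392796 to 451412 RPM (M), with 0 of 6 past the thresholds (beside 5.29% of all miRNAs) and a median log2 fold change of -0.06. mmu-miR-192-5p, which depends on hepatocyte nuclear factors, had a log2 fold change of 0.28 (adjusted p = 0.71), close to that of mmu-miR-101b-3p, and mmu-miR-122-5p, the most abundant miRNA of hepatocytes, had -0.12 (adjusted p = 0.71).

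Relative to mmu-miR-122-5p, the 3p entries of miR-101 came to 5.93%, 5.19% and 5.59% in the J replicates and to 4.28%, 3.80% and 5.04% in the M replicates, without overlap. The denominator was itself lower in the J group, with 208683 to 232872 RPM against 233362 to 262490.1 RPM, so this ratio is not independent of the group. Relative to the whole hepatocyte list they came to 3.16%, 2.88% and 3.22% against 2.55%, 2.21% and 2.96%, where J group replicate 2 fell below M group replicate 3. Both ratios were chosen after the data had been seen.

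Markers of other cell types differed in part between the groups, and their counts below stand beside 5.29% of all miRNAs past the thresholds, 3.83% of them lower in the J group. The leukocyte list (6 of 6 present) summed to 763 to 1108 RPM (J) and 1383 to 4782 RPM (M), with M group replicate 1 at the top (1383 to 1461 RPM in the other M libraries), and 1 of 6 passed the thresholds, mmu-miR-342-3p (log2 fold change -1.79). The list of stellate and smooth muscle cells (4 of 5 present) summed to 12582 to 16890 RPM against 16765 to 25242 RPM. Without M group replicate 1 the M sums were 16765 to 20214 RPM. These sums overlapped, and 3 of 4 members were lower in the J group past the thresholds. The absent member, mmu-miR-199a-3p, has the same RefSeq sequence as mmu-miR-199b-3p. That miRNA overlapped between the groups and did not pass (log2 fold change -0.16). The bile duct list (5 of 5 present, 950 to 2379 against 1203 to 4298 RPM, or to 2341 RPM without M group replicate 1), the erythroid list (3 of 4 present, 4362 to 6308 against 2581 to 9886 RPM) and the endothelial mmu-miR-126a-3p (4166 to 6718 against 4486 to 5579 RPM) overlapped between the groups, with 0 past the thresholds. The part of these cell types in the values of miR-101 was not tested.

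**Figure D4:**
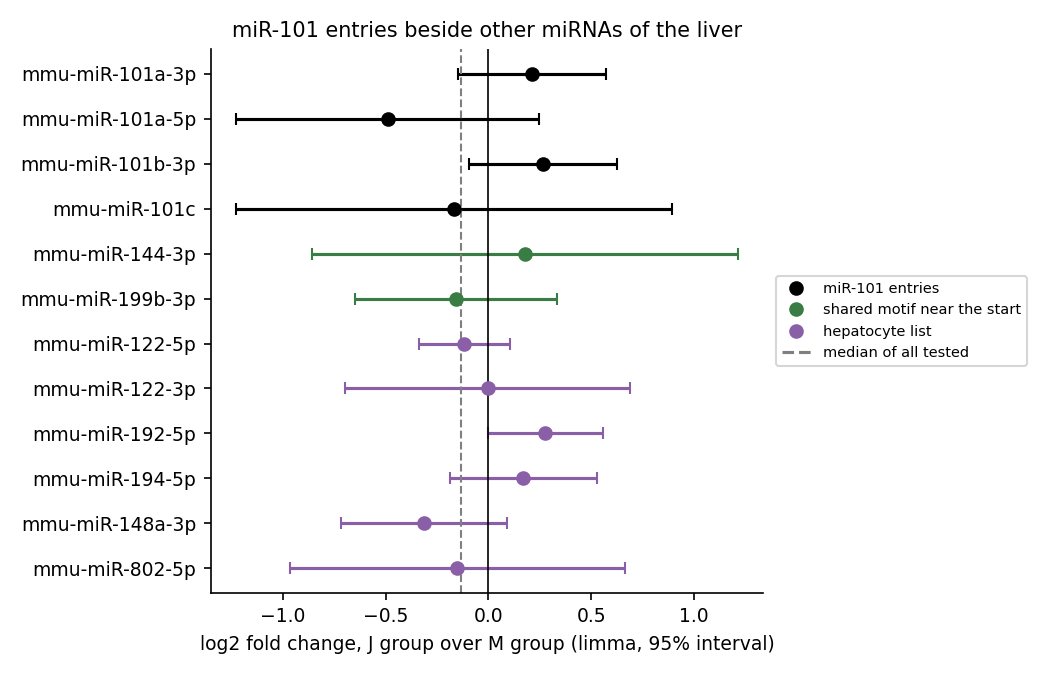
Log2 fold change of the J group over the M group (horizontal axis, limma on log2(RPM + 1), with 95% intervals) for the 4 miR-101 entries tested (black), the 2 miRNAs with the shared motif near their start (green) and the hepatocyte list (purple). The dashed line is the median of all 548 miRNAs at -0.13, and the intervals of mmu-miR-101b-3p (0.26) and mmu-miR-101a-3p (0.21) include 0.

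Scaling mattered for the size of these differences. The reads were also scaled by the median of ratios, which leans on all miRNAs alike instead of on the few that hold most of the reads, and the 3p sum then had a log2 difference of 0.35, without overlap. The log2 fold change of mmu-miR-101b-3p then came to 0.37 (adjusted p = 0.73, limma), and that of mmu-miR-101a-3p to 0.32 (adjusted p = 0.73). The median over all miRNAs moved from -0.13 to -0.04 by this scaling. When mmu-miR-122-5p was left out of the totals, the 3p sum kept a difference of 0.20 without overlap, while mmu-miR-101b-3p and mmu-miR-101a-3p, each taken by itself, overlapped between the groups. Quantile normalization, which gives every library the same distribution, changed which member separated. mmu-miR-101a-3p then lay above in all J libraries, with a log2 fold change of 0.57 past the thresholds (adjusted p = 0.75, limma). With this normalization 31 of the 548 miRNAs passed, 20 with a higher and 11 with a lower J level. The share of all miRNAs without overlap was not counted for it. mmu-miR-101b-3p was tied at 8039 RPM in all J libraries and M group replicate 3. It was lower in M group replicates 1 and 2 (5904 and 5518 RPM). The 3p sum still did not overlap. The median over all miRNAs was 0.08 under this normalization.

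The profiles of the pair over the 6 libraries were compared with those of the other mouse miRNAs tested by the root-mean-square difference of log2(RPM + 1) after each miRNA was centred on its mean. This measure favours miRNAs that vary little. The difference between the members of the pair was 0.19, while the median over all 494 others was 0.45 from mmu-miR-101a-3p and 0.46 from mmu-miR-101b-3p. In this order mmu-miR-101b-3p was 28th from mmu-miR-101a-3p, and mmu-miR-101a-3p was 18th from mmu-miR-101b-3p, so other miRNAs followed each member more closely than its paralog did.

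Closest to mmu-miR-101a-3p were mmu-miR-139-5p (difference 0.11), mmu-miR-148a-5p, mmu-miR-1843a-5p, mmu-miR-574-3p and mmu-miR-1843b-5p (0.12 each). Closest to mmu-miR-101b-3p were mmu-miR-29c-5p (0.08), mmu-miR-340-5p (0.11), mmu-miR-744-3p (0.13), mmu-miR-574-3p (0.14) and mmu-miR-203-3p (0.15). mmu-miR-574-3p was thus named for both. mmu-miR-29c-5p had a J mean of 11.2 ± 0.257 RPM and an M mean of 9.43 ± 1.71 RPM (SD, n = 3 each), far below the level of mmu-miR-101b-3p, and mmu-miR-744-3p was at 2.64 RPM, where single reads weigh. Of these 9 miRNAs, 0 passed the thresholds between the groups, beside 5.29% of all miRNAs. They were chosen in these same libraries for profiles close to the pair, which did not pass either. The count therefore follows largely from the choice and is no separate result.

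**Figure D5:**
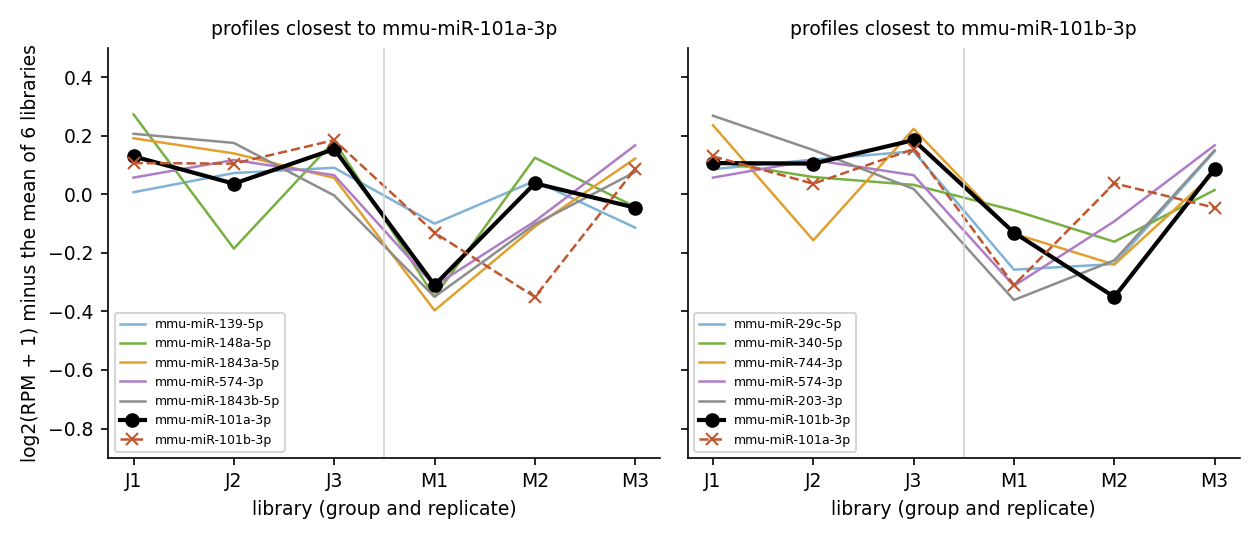
Centred log2(RPM + 1) (vertical axis) of mmu-miR-101a-3p (left) and mmu-miR-101b-3p (right) in black over the 6 libraries (horizontal axis, J replicates then M replicates), with the 5 closest miRNAs of each as thin lines and the paralog as a dashed line; lines only join the values of a miRNA. The members of the pair part in M group replicate 2, where mmu-miR-101b-3p is at -0.35 and mmu-miR-101a-3p at 0.04.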

How the data were processed

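Groups (3 J mice and 3 M mice, a liver small RNA library each) were taken from the labels. After read filtering, the authors matched collapsed reads to Rfam and miRBase and divided the reads of each entry by the total of miRNA reads in the library to give RPM. The deposited table holds RPM for all 6 libraries. Every value was a whole number of reads (100% within 0.01) once divided by its library's smallest step, from which 2626353 to 4314134 reads per library were recovered. The submitters' processing notes name mm9, and the table holds no positions, so positions and sequences are those of GRCm38 (GENCODE M21, RefSeq GRCm38.p6). Counting intervals are 95% Wilson intervals and limits are 3 reads (0.695 to 1.14 RPM), and both cover counting error only, since PCR copies were not told apart.

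The groups were compared by limma 3.58.1 in R 4.3.3 (two-sided, variances following a trend) on log2(RPM + 1) over the 548 entries with a mean above 1 RPM in a group, with Benjamini-Hochberg adjustment over all of them. The log2(RPM + 1) scale understates changes of rare entries. Sums and ratios were compared by exact permutation tests (scipy 1.17.1). edgeR 4.0.16 and DESeq2 1.42.0 were run on the recovered reads as alternatives. limma and edgeR were tested on simulated data in which the changes were larger than those of the miR-101 entries. That test does not show how well changes as small as theirs are found. The text names all miR-101 entries, their 3 neighbours in level on each side, the 5 closest profiles of each 3p member, miRNAs with the shared motif and the hepatocyte list. The members and lists were chosen with earlier results of these data known. Target genes, qRT-PCR and histology were not analysed here.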

Additional observations from a re-analysis of the deposited data

How the results depend on the processing

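The log2 fold changes of mmu-miR-101b-3p (0.15 to 0.37), mmu-miR-101a-3p (0.11 to 0.57) and the 3p sum (0.20 to 0.41) stayed above 0 under all alternatives run (16, 16 and 12). With a library left out they ranged from 0.15 to 0.37, from 0.11 to 0.28 and from 0.20 to 0.32. mmu-miR-101a-3p passed the thresholds only under quantile normalization (0.57, adjusted p = 0.75, limma), and the cause was not tested. The adjusted p of the pair ranged from 0.567 to 0.898. mmu-miR-101c changed sign under quantile normalization (0.033) and without M group replicate 1 (0.29, range -0.51 to 0.29 with a library left out). That of mmu-miR-101a-5p stayed below 0 (-0.65 to -0.29 with a library left out, and -0.19 with a pseudocount of 10 RPM, which shrinks changes of rare entries). The log2 ratio of the pair ranged from -0.15 to 0.13 with a library left out. The arm ratio of mmu-miR-101a ranged from -0.89 to -0.48 and stayed below 0, and that of mmu-miR-101b could not be computed without a pseudocount because of libraries with 0 reads. The count of miRNAs past the thresholds, 29 in limma, was 45 with edgeR and 21 to 45 with a library left out (45 without M group replicate 2), and 0 of the 4 miR-101 entries passed with edgeR. Higher and lower calls were 8 and 21 in RPM, 17 and 13 after median-of-ratios scaling and 20 and 11 after quantile normalization. Same-numbered J and M libraries did not deviate together (correlations of 0.05, 0.06 and -0.01), so the numbers are not taken to pair the mice. With the replicate block the count was 27, and mmu-miR-101b-3p (0.26), mmu-miR-101a-3p (0.21), mmu-miR-101a-5p (-0.49) and mmu-miR-101c (-0.17) stayed short of the thresholds. At 110 reads in all for mmu-miR-101a-5p and 7 for mmu-miR-101b-5p, depth limits what can be said of the passenger arms.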
